A study of Mus musculus with 8 samples.

Results

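The Iroquois homeobox genes were examined in whole lungs of mice at postnatal day 21, comparing 4 lungs with stabilized beta-catenin with 4 lungs in which the protein was knocked out. The family has 6 genes in the mouse, Irx1 to Irx6, and all 6 were found among the 19937 genes measured, each with 1 probe set whose annotation gives that symbol alone. The probe sets are 10410501 for Irx1, 10406005 for Irx2, 10580577 for Irx3, 10406017 for Irx4, 10573910 for Irx5 and 10573916 for Irx6. The family was chosen by its log2 differences in this same contrast, since earlier results on these arrays had shown higher values of Irx1 and Irx3 in stabilized lungs. Differences of the 6 genes between the groups are therefore given as descriptions, and their place in the fit over all genes is stated without being evidence.

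All 8 mice were untreated, and the labels call each a separate biological replicate. Beta-catenin carries the canonical Wnt signal to target genes and is also part of cell junctions, and its stabilized form is protected from degradation. No promoter, Cre line or altered exon is named in the labels, so which lung cells carried either allele is not known here. Unmodified lungs were not analysed here, so a difference does not say which group moved. Below, rose and fell mean only higher and lower in stabilized lungs than in knockout lungs. In bulk lung RNA, fewer cells of a type and less RNA per cell cannot be told apart.

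Iroquois genes encode homeodomain transcription factors of the TALE class, first known from the iroquois locus that patterns the body wall of Drosophila. In mammals they lie in a pair of clusters of 3 genes, and in the mouse Irx1, Irx2 and Irx4 are on chromosome 13 and Irx3, Irx5 and Irx6 on chromosome 8. Several of them are active in the developing mouse lung, and in the heart Irx4 marks the ventricles while Irx3 and Irx5 act in conduction and repolarization.

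The arrays bore out the labelled tissue, with the surfactant gene Sftpc between 13.10 and 13.27 in stabilized lungs and between 13.004 and 13.29 in knockout lungs on the log2 scale. The alveolar type 1 gene Ager lay between 12.05 and 12.13 in stabilized lungs and between 11.90 and 11.95 in knockout lungs. Ctnnb1 transcript differed by 0.09 ± 0.06 (SE, n = 4 per group, limma adjusted p = 0.42), and without knowledge of the altered exons its probe set does not check the labels. The labels describe every mouse as male, yet Xist, the transcript of the inactive X chromosome, was high (10.36 to 10.59) in 4 arrays and low (4.18 to 4.62) in the other 4. The high arrays were stabilized replicates 1 and 4 and knockout replicates 1 and 3, so each group held 2 of them. Eif2s3y, a Y-linked gene, was 3.08 to 3.32 in these 4 arrays and 7.85 to 8.35 in the other 4. The Y-linked genes Kdm5d and Uty were low in the same 4 arrays. By these genes the 4 lungs are female, against their label, and whether label or sample is wrong is not known. Results are therefore also given with the Xist level as a covariate and in the 4 arrays with low Xist alone. Arrays correlated over all genes at 0.993 to 0.996 when they shared a group and at 0.987 to 0.993 when they did not.

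RefSeq promoters of build GRCm38.p6, from 250 bases before to 50 after the annotated start, were found for Irx2, Irx3 and Irx4. Those of Irx3 and Irx2 are shown, 1 from each cluster, because Irx3 separated the groups and Irx2 did not. Capitals mark the 50 bases from the annotated start on, and both run 5′ to 3′ along the gene. The Irx3 window is chr8:91801605-91801904 on the minus strand and the Irx2 window is chr13:72628570-72628869 on the plus strand.
Irx3: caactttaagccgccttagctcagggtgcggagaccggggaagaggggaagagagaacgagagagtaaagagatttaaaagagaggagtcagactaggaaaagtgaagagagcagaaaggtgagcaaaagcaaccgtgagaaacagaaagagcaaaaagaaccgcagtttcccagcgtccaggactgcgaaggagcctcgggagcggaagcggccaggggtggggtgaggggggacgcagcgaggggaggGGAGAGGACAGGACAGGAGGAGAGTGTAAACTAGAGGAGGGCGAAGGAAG
Irx2: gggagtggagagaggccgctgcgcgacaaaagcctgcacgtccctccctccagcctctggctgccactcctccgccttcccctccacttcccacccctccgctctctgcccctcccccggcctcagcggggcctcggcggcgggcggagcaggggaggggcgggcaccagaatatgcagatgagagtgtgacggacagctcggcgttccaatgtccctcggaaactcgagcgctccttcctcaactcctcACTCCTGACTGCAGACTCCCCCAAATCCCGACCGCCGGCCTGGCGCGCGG
The Irx3 window is 56.0% G and C with 14 CpG dinucleotides. The Irx2 window is 69.0% G and C with 25 CpG, and that of Irx4 is 70.7% with 31 CpG, against medians of 52.7% and 7 over 32851 promoters of the same length. Of all promoters 59.7% had a lower G and C content than Irx3, 88.9% than Irx2 and 91.4% than Irx4. Both forms of the TCF/LEF core, CTTTGAA and CTTTGAT, were searched on both strands, as was the palindromic Iroquois motif ACANNTGT, in which N is any base. The forms were found in 5.14%, 3.73% and 7.38% of all promoters, and none was found in the 3 windows of 300 bases, which says only that these letters are not in them.

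Of the 6 Iroquois genes, Irx1, Irx3 and Irx5 passed the threshold of the fit over all genes (limma, Benjamini-Hochberg adjusted p under 0.05), all with higher values in stabilized lungs. Irx2, Irx4 and Irx6 did not pass. Over all genes 9.62% passed and 4.65% passed with higher values in stabilized lungs, and since the family was chosen with this contrast in view nothing is read from the 3 of 6. The median log2 difference, stabilized minus knockout, was 0.22 over the 6 members and -0.01 over all genes. The background depends on brightness. Over genes above the median brightness, which include Irx1, Irx2, Irx3 and Irx5, the median was 0.05. Of those genes, 1121 passed with higher and 584 with lower values in stabilized lungs. The groups did not overlap for the same 3 genes, against 16.9% of all genes in either direction and 9.06% with stabilized lungs higher. The array has no detection call, so brightness is given as the share of genes with a dimmer mean value. That share was 89.4% for Irx2, 84.6% for Irx1, 81.5% for Irx3, 59.6% for Irx5, 37.3% for Irx6 and 22.5% for Irx4. Brightness depends on the probes, so these shares do not rank the transcripts by abundance.

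**Figure D1:**
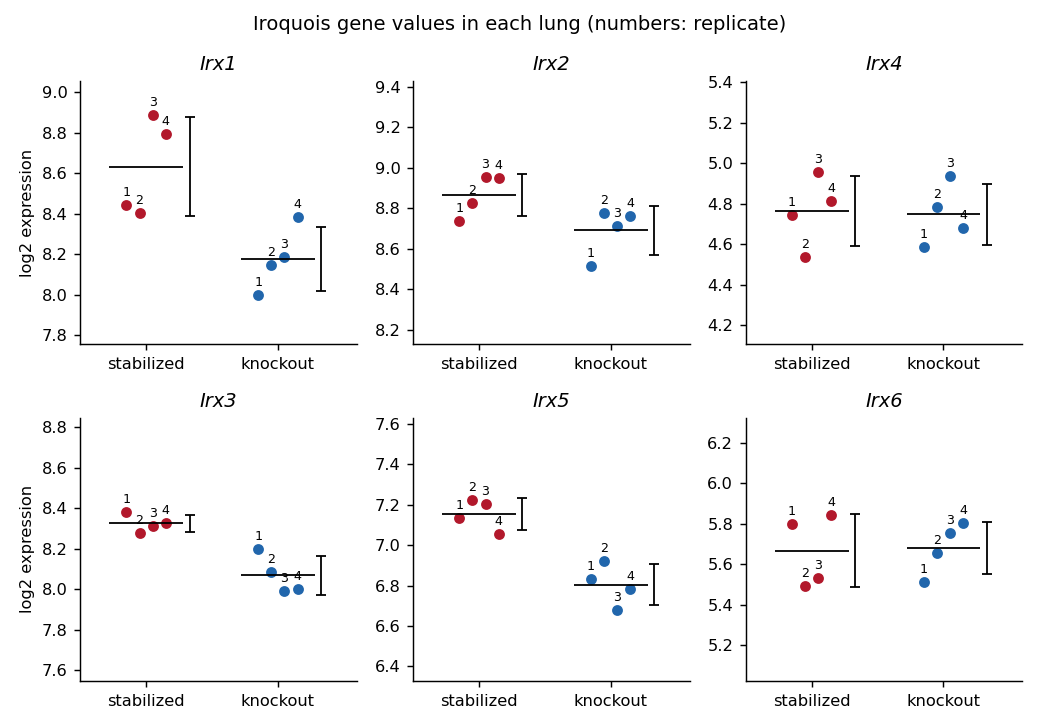
Log2 expression of the 6 Iroquois genes in each lung, with stabilized lungs in red on the left and knockout lungs in blue on the right of each panel. Points carry their replicate number, horizontal lines are group means and bars are SD (n = 4), and every panel spans the same range of 1.3 on the log2 scale. The groups are apart for Irx1, Irx3 and Irx5 and overlap for Irx2, Irx4 and Irx6.

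Irx1 heads its cluster and is the member with the largest difference here. Its log2 value was 8.44, 8.41, 8.89 and 8.79 in stabilized lungs 1 to 4, against 7.999, 8.15, 8.19 and 8.38 in knockout lungs 1 to 4. The groups did not overlap, but the gap between the lowest stabilized lung and the highest knockout lung was only 0.02. The mean difference was 0.45 ± 0.12 (SE, n = 4 per group), a 1.37-fold higher value in stabilized lungs, and 1.25% of genes had a larger increase. Stabilized replicates 3 and 4 lay well above stabilized replicates 1 and 2. The pooled SD within groups was 0.21, and 94.2% of genes were less variable.

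Irx2, a neighbour of Irx1 that is often transcribed in the same tissues, had a smaller difference. It had log2 values of 8.74, 8.82, 8.95 and 8.95 in stabilized lungs 1 to 4, against 8.51, 8.77, 8.71 and 8.76 in knockout lungs 1 to 4. Stabilized replicate 1 lay below knockout replicates 2 and 4, so the groups overlapped. The difference was 0.18 ± 0.08 (SE, n = 4 per group) with a 95% interval of 0.01 to 0.35, and 12.3% of genes had a larger increase.

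Irx4, the ventricular member of the same cluster, gave dim signals of 4.74, 4.54, 4.96 and 4.82 in stabilized lungs 1 to 4, against 4.59, 4.78, 4.94 and 4.68 in knockout lungs 1 to 4. The groups were intermingled. The difference was 0.02 ± 0.10 (SE, n = 4 per group), with a 95% interval of -0.20 to 0.23. At this brightness background compresses fold changes, so a change of a weak transcript could be missed.

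Irx3 opens the other cluster and is best known for the cardiac conduction system and for its neighbour Fto, whose introns hold Irx3 enhancers. Its log2 value was 8.38, 8.28, 8.31 and 8.33 in stabilized lungs 1 to 4, against 8.20, 8.08, 7.99 and 8.002 in knockout lungs 1 to 4. Every stabilized lung lay above every knockout lung, with a gap of 0.08. The difference was 0.26 ± 0.07 (SE, n = 4 per group), or 1.19-fold, and 5.65% of genes had a larger increase. Its pooled SD of 0.07 was small, and 18.6% of genes varied less.

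Irx5, which shapes the repolarization gradient of the mouse heart and acts alongside Irx3, had the widest gap between the groups of the 6 members. Its log2 value was 7.13, 7.22, 7.20 and 7.05 in stabilized lungs 1 to 4, against 6.83, 6.92, 6.68 and 6.78 in knockout lungs 1 to 4. The gap between the lowest stabilized and the highest knockout lung was 0.13. The difference was 0.35 ± 0.07 (SE, n = 4 per group), or 1.27-fold, and 2.62% of genes had a larger increase.

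Irx6, the last of its cluster and known mainly from the nervous system and retina, showed no such gap. Its log2 value was 5.80, 5.49, 5.53 and 5.84 in stabilized lungs 1 to 4, against 5.51, 5.66, 5.75 and 5.80 in knockout lungs 1 to 4. The groups overlapped over nearly their whole range. The difference was -0.01 ± 0.10 (SE, n = 4 per group), with a 95% interval of -0.22 to 0.19. Among the arrays with low Xist, stabilized lungs 2 and 3 lay below knockout lungs 2 and 4. Among those with high Xist, stabilized lungs 1 and 4 lay above knockout lungs 1 and 3.

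Leaving out 1 array at a time separated the 3 genes that had passed. Irx5 passed in 8 of 8 such fits, with a difference of 0.31 to 0.39. Irx1 passed in 3 of 8, with a difference of 0.37 to 0.53, and its call needed stabilized lungs 3 and 4 and knockout lungs 1, 2 and 3. Irx3 passed in 2 of 8, with a difference of 0.23 to 0.30, and it passed only without stabilized replicate 2 or knockout replicate 1. Irx2 kept a positive difference of 0.12 to 0.22 in 8 of 8 and passed in 0 of 8. Irx4 and Irx6 took either sign, each positive in 4 of 8 fits. After a repeated quantile step only Irx5 passed, with differences of 0.41 for Irx1, 0.21 for Irx3 and 0.35 for Irx5. With the Xist level as a covariate Irx1, Irx3 and Irx5 passed, with differences of 0.45 for Irx1, 0.26 for Irx3 and 0.35 for Irx5. In the 4 arrays with low Xist, 2 against 2, the differences were 0.38 for Irx1, 0.25 for Irx3 and 0.36 for Irx5. They were 0.12 for Irx2, 0.02 for Irx4 and -0.22 for Irx6. There 0 members passed, in a fit with only 354 calls over all genes.

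**Figure D2:**
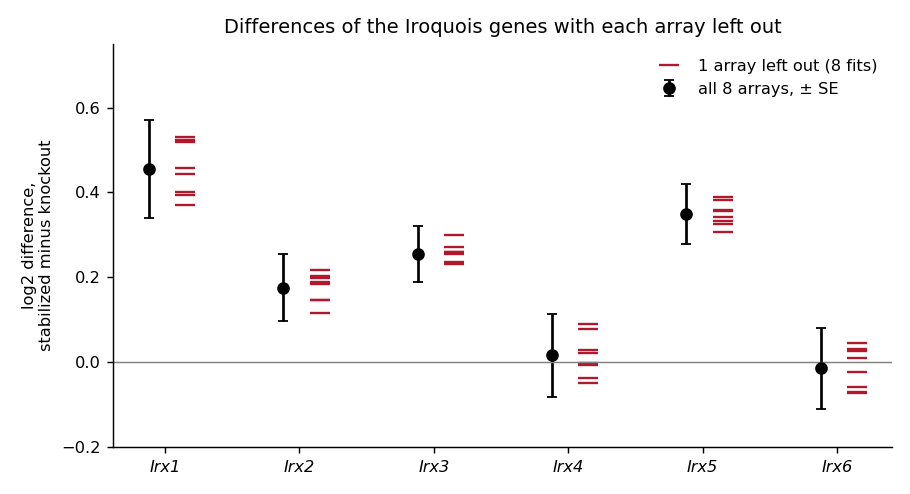
Log2 difference, stabilized minus knockout, of each Iroquois gene. Black points with bars are the fit to all 8 arrays ± SE, and red dashes are the 8 fits that leave out 1 array. The dashes of Irx1, Irx2, Irx3 and Irx5 all lie above 0, and those of Irx4 and Irx6 lie on both sides.

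The spread between lungs of 1 group gives a view of the family that the choice of members did not use. Of the 15 pairs of members, the deviations from the group mean were most alike for Irx1 and Irx2, which had the same sign in 7 of 8 arrays (r = 0.81 over 8 arrays). The next in size were of opposite sign, namely Irx2 with Irx3 (r = -0.70, same sign in 3 of 8) and Irx5 with Irx6 (r = -0.69, same sign in 0 of 8). Irx3 and Irx5, which share a cluster and both passed, had r = 0.28 and the same sign in 4 of 8 arrays. In stabilized lungs 1 and 4, with high Xist, Irx6 lay above and Irx5 below the group mean, and in lungs 2 and 3 the reverse. Knockout lungs showed no such split by Xist, and deviations were taken without removing the Xist level. All members of an array share its RNA and its normalization, and these coefficients are descriptions with no test.

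**Figure D3:**
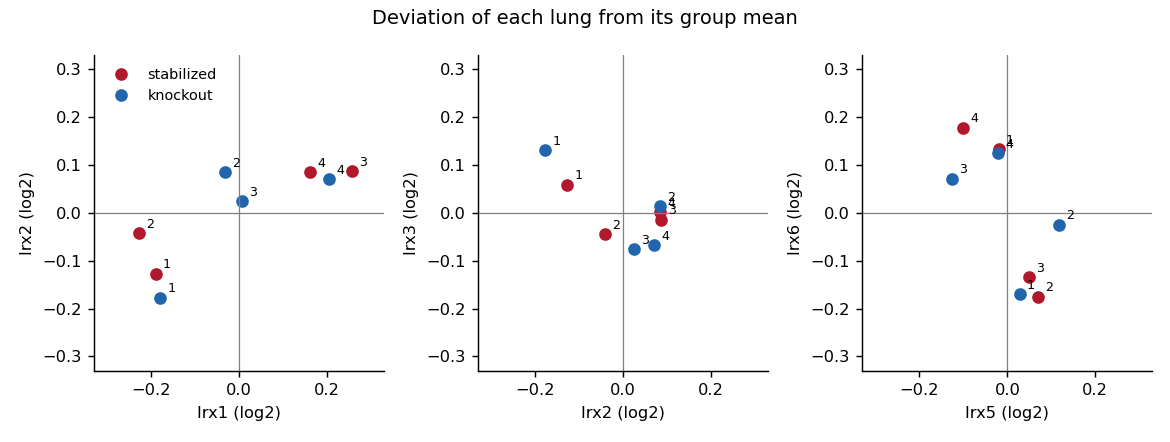
Deviation of each lung from the mean of its own group, in log2 units, for the 3 pairs of Iroquois genes with the largest correlation in size among 15 pairs. Red points are stabilized and blue points knockout lungs, numbered by replicate. Irx1 and Irx2 deviate the same way in 7 of 8 lungs, whereas Irx5 and Irx6 deviate in opposite ways in every lung.

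Likeness to other genes was measured as the root mean square distance between log2 profiles, each centred on its mean over the 8 arrays. For Irx1 the nearest genes were Ccl12 (0.10), Tubb2b (0.11), Hspa1a (0.11), Bpifb5 (0.12) and Serpinh1 (0.12). For Irx2 they were Ano9 (0.02), Dhh (0.05), Prkd2 (0.05), Grik5 (0.05) and Mb21d2 (0.05). For Irx3 they were Rtkn (0.04), Pilra (0.04), Wtap (0.05), Cndp2 (0.05) and Fh1 (0.05). No Iroquois gene was among the 5 genes nearest to another. For Irx5 they were Lrrk2 (0.04), a kinase gene that alveolar type 2 cells express strongly, then Wdr77 (0.05), Zfp462 (0.05), Sel1l (0.05) and Ctsz (0.06). Lrrk2 itself differed by 0.33 ± 0.06 (SE, n = 4 per group) and Sel1l by 0.30 ± 0.06. Profiles over all 8 arrays include the difference between the groups. Genes near Irx5 therefore differ by a like amount through the way they were picked, and nothing is read from it. For Irx4 and Irx6, which did not separate the groups, the nearest were Sbk2 (0.04) and Dhrs13 (0.04). With profiles centred on each group mean instead, the nearest genes were Tdrd9 (0.04) and Foxf1 (0.05) for Irx1, Ano9 (0.02) for Irx2, Scgb2b23-ps (0.02) for Irx3, Sbk2 (0.03) for Irx4, Ssx2ip (0.02) for Irx5 and Dhrs13 (0.03) for Irx6. Ano9 was thus nearest to Irx2 by both measures.

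Genes at the same loci, which the choice of members did not use, went several ways. Of 21 measured genes inside or next to the clusters, 3 rose, 2 fell and 16 did not pass (limma). Over all genes 4.65% rose and 4.96% fell. The median difference of the 21 was 0.08, beside -0.01 over all genes. Of these 21, 15 were above the median brightness, and over all genes that bright the median was 0.05. Without stabilized replicate 1 the count was 1 up and 1 down, and without stabilized replicate 2 or knockout replicate 3 or 4 it was 1 up and 2 down. Mmp2, the gelatinase gene next to Irx6, had log2 values of 10.23, 10.14, 10.24 and 10.19 in stabilized lungs 1 to 4, against 9.74, 9.92, 9.88 and 9.76 in knockout lungs 1 to 4. It rose by 0.37 ± 0.07 (SE, n = 4 per group, limma adjusted p = 0.0032) with no overlap, while Irx6, between it and Irx5, did not pass. Slc6a2, the noradrenaline transporter gene beyond it, fell by 0.84 ± 0.11 (SE, limma adjusted p = 6.1e-04). It lay at 6.24, 6.27, 6.82 and 6.25 in stabilized lungs 1 to 4, where lung 3 stood apart, and between 7.19 and 7.27 in knockout lungs.

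Lpcat1, a phospholipid acyltransferase of surfactant synthesis that lies beyond Irx4, rose by 0.31 ± 0.08 (SE, n = 4 per group, limma adjusted p = 0.023). It was 11.06, 11.01, 10.89 and 10.77 in stabilized lungs 1 to 4, against 10.69, 10.66, 10.64 and 10.50 in knockout lungs 1 to 4. Its call was lost in 4 of 8 leave-one-out fits. Lpcat2, a related enzyme gene beside Mmp2, rose by 0.27 ± 0.08 (SE, limma adjusted p = 0.042), a call that 7 of 8 leave-one-out fits lost. Rpgrip1l, a gene of the ciliary transition zone on the far side of Fto, fell by 0.34 ± 0.08 (SE, limma adjusted p = 0.015), a call lost in 1 of those fits (adjusted p = 0.054 without stabilized replicate 1). Fto itself differed by -0.13 ± 0.07 (SE, adjusted p = 0.25), with 7.98, 7.92, 7.91 and 7.93 in stabilized lungs 1 to 4, against 8.06, 8.10, 8.18 and 7.93 in knockout lungs 1 to 4.

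The non-coding genes inside the clusters can be set beside the members they adjoin. Irx3os, a non-coding gene beside Irx3, differed by -0.06 ± 0.06 (SE, n = 4 per group, limma adjusted p = 0.56), while Irx3 was higher in every stabilized lung. Crnde, which adjoins Irx5, differed by 0.25 ± 0.10 (SE, adjusted p = 0.14). Its log2 values were 6.71, 7.08, 6.86 and 6.71 in stabilized lungs 1 to 4, against 6.76, 6.63, 6.57 and 6.39 in knockout lungs 1 to 4, so the groups overlapped through knockout replicate 1. The remaining non-coding genes of the clusters had no probe set with a single symbol and were not analysed here.

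**Figure D4:**
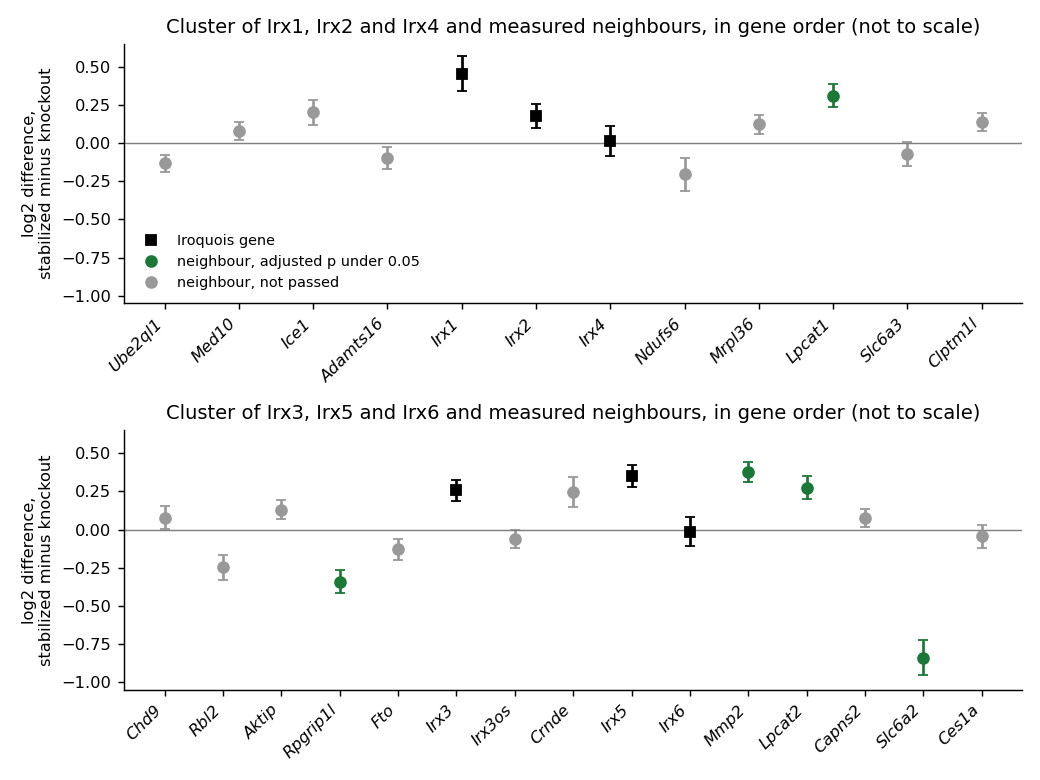
Log2 difference, stabilized minus knockout, ± SE, of the Iroquois genes (black squares) and of the measured genes inside and next to their clusters (circles), in gene order and not to scale. Green circles passed a limma adjusted p under 0.05 over all genes and grey circles did not. Mmp2, Lpcat1 and Lpcat2 are higher and Slc6a2 and Rpgrip1l lower in stabilized lungs.

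The nearest relatives of the family did not pass, where 9.62% of all genes did. Of 11 measured TALE homeobox genes outside the Iroquois group, 0 passed (limma) and 1 had an unadjusted p under 0.05, with a median difference of 0.03 and a range of -0.14 to 0.25. Pknox2 had 0.25 ± 0.12 (SE, adjusted p = 0.21). The smallest p was that of Meis2, a cofactor of Hox and Pbx proteins, at 0.22 ± 0.10 (SE, n = 4 per group, adjusted p = 0.19, unadjusted p = 0.043). Its values were 7.61, 7.90, 7.55 and 7.92 in stabilized lungs 1 to 4, against 7.63, 7.39, 7.61 and 7.48 in knockout lungs 1 to 4, so the groups overlapped. Mkx, which acts in tendon, differed by -0.14 ± 0.07 (SE, adjusted p = 0.21).

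Genes described elsewhere as responding to Iroquois factors were next, and 4 of 10 measured rose while 0 fell, beside 4.65% of all genes that rose. Their median difference was 0.06, since the other 6 lay between -0.20 and 0.11. All 4 risers are above the median brightness, where 1121 genes rose and 584 fell. The list was chosen with earlier results of these arrays known. It mixes genes that Iroquois factors activate with genes that they repress, so nothing is read from the count. Gja5, the connexin 40 gene that Irx3 activates in the mouse conduction system and that arterial endothelium also uses, had 9.15, 8.95, 8.74 and 8.82 in stabilized lungs 1 to 4, against 8.11, 8.06, 7.89 and 8.09 in knockout lungs 1 to 4. It rose by 0.88 ± 0.09 (SE, n = 4 per group, limma adjusted p = 6.9e-05), or 1.84-fold, with no overlap.

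Gja1, the connexin 43 gene that Irx3 represses in the mouse conduction system, rose as well, by 0.69 ± 0.10 (SE, n = 4 per group, limma adjusted p = 0.0012). It lay at 9.82, 10.05, 9.52 and 9.60 in stabilized lungs 1 to 4 and between 8.95 and 9.16 in knockout lungs. Myh7, the slow cardiac myosin gene, rose by 0.72 ± 0.12 (SE, adjusted p = 0.0024), and Bmp4, a ligand that Iroquois factors repress in Xenopus embryos, rose by 0.53 ± 0.11 (SE, adjusted p = 0.0071). Bmp4 was 8.58, 8.77, 8.58 and 8.42 in stabilized lungs 1 to 4, against 8.25, 8.20, 7.98 and 7.79 in knockout lungs 1 to 4. These 4 genes passed in all 8 leave-one-out fits, while in the 4 arrays with low Xist only Gja5 passed (limma adjusted p = 0.012). The differences in those arrays were 0.77 for Gja5, 0.73 for Gja1, 0.80 for Myh7 and 0.68 for Bmp4. Kcnd2, a potassium channel gene that Irx5 represses in the mouse heart, differed by -0.08 ± 0.08 (SE, adjusted p = 0.58), and the dim Bmp10 by -0.16 ± 0.10 (SE, adjusted p = 0.34).

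Of 26 developmental factors that share tissues or pathways with the Iroquois genes, 2 rose, 0 fell and 24 did not pass, with a median of -0.02. Over all genes 4.65% rose and 4.96% fell, so nothing is read from these counts. The risers were Etv5, a factor downstream of FGF signalling, at 0.34 ± 0.08 (SE, n = 4 per group, limma adjusted p = 0.019), and the receptor gene Bmpr1a at 0.26 ± 0.07 (SE, adjusted p = 0.039). The call of Etv5 was lost in 5 and that of Bmpr1a in 7 of 8 leave-one-out fits. None of the 26 rose without stabilized replicate 1 or 2 or knockout replicate 2, 3 or 4. Without stabilized replicate 4 or knockout replicate 3, 1 of them fell. The number that fell was also 1 after a repeated quantile step and with the Xist covariate.

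Some cell type markers also differed between the groups, and their part in the Iroquois differences was not tested. The shares to set beside each marker count below are those over all genes, of which 4.65% rose and 4.96% fell. Of 16 alveolar type 2 markers 10 rose and 0 fell (median 0.26), with the mean log2 level over the list at 10.83 to 10.99 in stabilized lungs and 10.55 to 10.71 in knockout lungs. Egfl6, Lamp3, Sftpd and Abca3 rose by 0.67 ± 0.09, 0.55 ± 0.07, 0.46 ± 0.07 and 0.34 ± 0.07 (SE). The rise was not uniform, although 15 of the 16 differences were positive. Sftpc differed by 0.03 ± 0.08, Sftpb by 0.09 ± 0.08 and Cd74 by -0.27 ± 0.13 (SE), and these did not pass. With 1 array left out 5 to 9 type 2 markers rose, with 5 without stabilized replicate 1 or knockout replicate 2 or 4 and 6 without stabilized replicate 2 or 3 or knockout replicate 3. Of 16 type 1 markers 4 rose and 0 fell (median 0.10), at 10.50 to 10.59 in stabilized and 10.39 to 10.48 in knockout lungs. Of these Spock2 rose by 0.33 ± 0.06 and Krt7 by 0.28 ± 0.06 (SE). The type 1 count was 1 without stabilized replicate 1, 3 without stabilized replicate 2 and 2 without any other single array. It was also 2 after a repeated quantile step and with the Xist covariate. The calls of Agrn and Limch1 were lost in 7 and 8 of 8 leave-one-out fits.

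Some mesenchymal and mesothelial markers also rose. Of 12 fibroblast and mesenchyme markers 4 rose and 0 fell (median 0.23), at 10.08 to 10.21 in stabilized and 9.83 to 9.97 in knockout lungs. The mesenchymal factor gene Tcf21 rose by 0.64 ± 0.11 and the ligand gene Wnt2 by 0.64 ± 0.09 (SE). Of the 12 differences 10 were positive. Col1a1 differed by -0.16 ± 0.11, Dcn by -0.14 ± 0.10 and Col1a2 by 0.03 ± 0.08 (SE), and these did not pass. Of 7 mesothelial markers 3 rose and 0 fell (median 0.18), at 8.12 to 8.19 in stabilized and 7.90 to 7.97 in knockout lungs, with Msln up by 0.45 ± 0.07 (SE). That count was 1 without knockout replicate 3 and 2 without knockout replicate 4. Of 13 endothelial markers 0 passed (limma) and 3 had an unadjusted p under 0.05 (median 0.05), at 10.06 to 10.09 in stabilized and 9.97 to 10.06 in knockout lungs. The smallest p among them was that of Gpihbp1, with 0.19 ± 0.08 (SE, limma adjusted p = 0.13).

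Heart muscle markers are set beside Irx4 and the cardiac genes above, and a link between them was not tested. Myh7 and Bmp10 are each both in a heart muscle list and among the responding genes above. Of 11 genes listed as atrial and pulmonary vein muscle markers 0 rose and 4 fell (median -0.38). Those 4, Actc1, Tnnt2, Tnni3 and Ryr2, are also expressed in ventricular muscle. The other 7, among them Myl7, Myl4, Nppa, Sln and Bmp10, did not pass. The mean level was 7.34 to 7.41 in stabilized lungs and 8.04, 7.61, 8.13 and 7.62 in knockout lungs 1 to 4. Knockout lungs 1 and 3 are those with high Xist, and Nppa had an SD of 1.47 in knockout lungs. Without knockout replicate 2 the number that fell was 7, and without knockout replicate 3 it was 2. Ryr2, the calcium release channel gene, fell by 0.63 ± 0.08 (SE). Of 6 ventricular markers Myh7 and Lbh rose, Myl3 fell by 0.38 ± 0.06 (SE) and 3 did not pass (median -0.03), at 6.42 to 6.52 in stabilized and 6.32 to 6.48 in knockout lungs. The call of Lbh was lost in 6 of 8 leave-one-out fits.

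Airway and lymphocyte markers went the other way from Irx1, Irx3 and Irx5. Of 12 club cell markers 0 rose and 12 fell (median -0.88), at 8.27 to 8.65 in stabilized and 9.54 to 9.96 in knockout lungs. Of 12 ciliated cell markers 0 rose and 9 fell (median -0.80), at 5.82 to 5.96 in stabilized and 6.54 to 6.69 in knockout lungs. Of 9 lymphocyte markers 0 rose and 8 fell (median -1.35), at 5.99 to 6.17 in stabilized and 6.97 to 7.58 in knockout lungs. Of 9 smooth muscle markers Hhip alone fell, by 0.63 ± 0.12 (SE), and the median was 0.10. Of 5 neural and neuroendocrine markers 0 passed (limma) and 0 had an unadjusted p under 0.05, and of 8 skin, fat and cartilage genes Cidec alone fell, by 0.42 ± 0.09 (SE), with medians of 0.00 and -0.07. In the 4 arrays with low Xist 9 club, 9 ciliated and 6 lymphocyte markers fell and 3 type 2 markers rose. None of the type 1, fibroblast, mesothelial or heart muscle markers passed there.

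**Figure D5:**
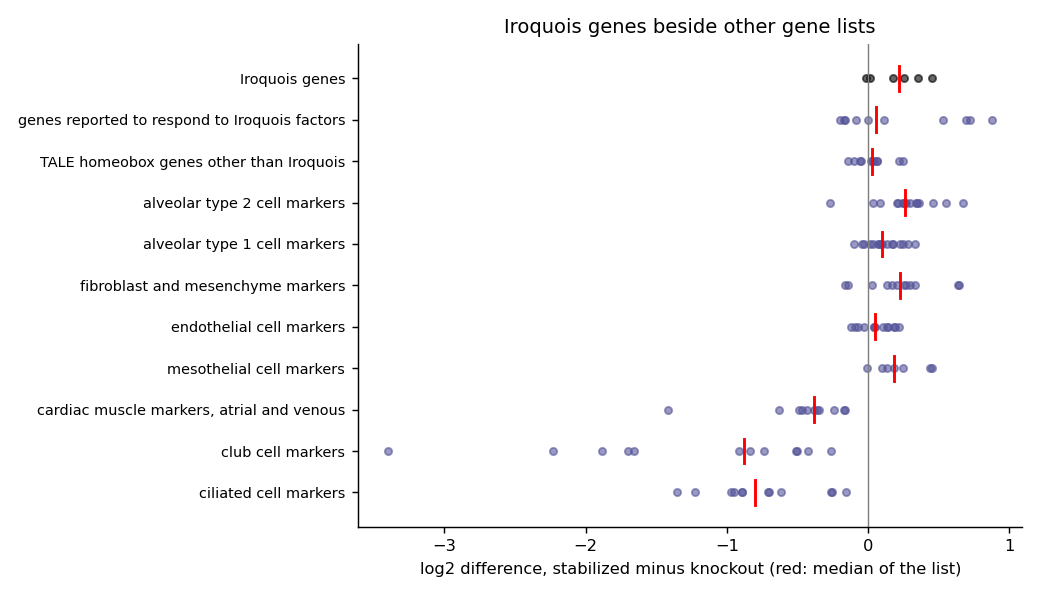
Log2 difference, stabilized minus knockout, of every measured gene of a list (points) with the median of the list (red line). The 6 Iroquois genes have a median of 0.22, and the median is 0.26 for alveolar type 2 markers, 0.23 for fibroblast and mesenchyme markers, -0.88 for club cell markers and -0.80 for ciliated cell markers.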

How the data were processed

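Total RNA of 8 mouse lungs was labelled with biotin and hybridised to Affymetrix expression arrays, per the labels' protocols. The authors deposited log2 expression values per probe set; the tools were RMA and affy, per the submitters' processing notes, with no versions given there. The genome build of the probes is not given in the sources used here, and the RefSeq gene table served for names and gene order. Of 34760 probe sets, 21640 had 1 gene symbol, 1321 several and 11799 none in the annotation; each gene was read by its brightest probe set, which left 19937 genes with no filter.

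Groups were compared with limma (version 3.58.1, R 4.3.3; lmFit and eBayes, 12.2 total degrees of freedom) on all 8 arrays, with Benjamini-Hochberg adjustment over all genes and a threshold of 0.05. Differences are stabilized minus knockout, with moderated SE; n is 4 per group, which limits the precision. The fit was tested on simulated data: estimates were close to the changes put in, but some small changes were missed, and a first criterion on their recovery was not met and was replaced after that was seen. A gene that did not pass may therefore still differ. The members and 16 gene lists were chosen with earlier results of these arrays known. Named genes are the members, the 5 nearest protein-coding genes on each side of a cluster and any measured non-coding gene inside it. From each list come up to 4 called genes, otherwise the 2 with the smallest p. The genes most like each member are also named. Other genes of the lists named in the text (Kcnd2, Bmp10, Pknox2, Sftpb, Sftpc, Cd74, Col1a1, Col1a2, Dcn) were chosen after their values were seen. Alternatives were another quantile step, centring, a brightness filter, all probe sets, an intensity-dependent prior, a replicate block, Xist as a covariate and each array left out; the 4 arrays with low Xist alone were added after the data were seen.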

Additional observations from a re-analysis of the deposited data

Results flagged for a closer look

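None of the 6 Iroquois genes had a lung standing apart from the other 3 of its group. A lung stood apart where its gap to the next, over the range of its group, passed the cutoff of the Dixon test. Over all 180 groups of 4 tested, 8 single lungs stood apart (4.44%). That cutoff gives 1 in 20 for independent normal values. These groups come from the same 8 lungs and share genes, so the share cannot be judged against it. In stabilized lungs, Slc6a2 was 6.82 in replicate 3 (6.24 to 6.27 in the others), and Chd9 was 8.05 and Chad 5.76 in replicate 2 (7.78 to 7.81 and 6.27 to 6.36). Tcf21 was 10.11 in stabilized replicate 1 (9.78 to 9.84), while Hhip was 7.70 and Cd79a 5.07 in stabilized replicate 4 (8.16 to 8.24 and 5.48 to 5.54). In knockout lungs, Msln was 8.08 in replicate 1 (8.29 to 8.30) and Ice1 was 8.22 in replicate 2 (8.15 to 8.16). All are log2 expression values.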

How the results depend on the processing

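Of the Iroquois genes 3 passed in the fit to all arrays and under centring, a brightness filter (which leaves out Irx4 and Irx6), all probe sets, the intensity-dependent prior, the replicate block and Xist as a covariate. After a repeated quantile step only Irx5 passed, so the count was 1 (Irx1 0.41 and Irx3 0.21 on the log2 scale). With 1 array left out it was 1 to 3 (1 without stabilized replicate 3 or 4 or knockout replicate 2 or 3). The count of called genes was 1216 to 1839 with 1 array left out (1216 without stabilized replicate 1, 1235 without knockout replicate 3), that of cluster neighbours 2 to 5 (2 without stabilized replicate 1, 3 without stabilized replicate 2 or knockout replicate 3 or 4), that of cell type markers 45 to 56, and those of TALE relatives and responding genes 0 and 4. In the 4 arrays with low Xist, a fit of 2 against 2 with fewer arrays, 354 genes, 0 Iroquois genes, 0 neighbours, 1 responding gene and 28 of 136 cell type markers passed. Centring moved the share of called genes that were higher to 61.2%, against 48.4%, and the brightness filter to 65.7%; it was 34.5% in the arrays with low Xist and 41.4% without stabilized replicate 1. With the replicate block 1828 genes and 4 neighbours (Lpcat2 lost) passed, and all 3 Iroquois calls held. Deviations of same-numbered lungs correlated at -0.01 to 0.08 over genes, and those of differently numbered lungs at -0.17 to 0.14. These values give no sign that the numbers pair the lungs, but they cannot exclude it. Of 129 genes refitted, 55 of them chosen by likeness, 0 changed sign where either fit called them. Dim signal over background limits what Irx4 and Irx6 can show.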
